A study of Mus musculus and Homo sapiens with 18 samples.

Results

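At 1794 positions in the mouse genome, dCas9 carrying the guide Nanog-sg3 was listed as bound in all 3 lists made with 20 ug of guide and was not listed with 2 ug. These 20 ug-only positions are peaks of the second of 2 libraries from stable dCas9 cells at 20 ug that share at least 1 bp with a peak of the first such library and with a peak of the transient library, and share none with a peak of the 2 ug list. Of the 5862 peaks of the second library, 62.2% met a peak of the first library, 78.7% met a transient peak, and 69.5% met no 2 ug peak. The 20 ug-only positions make up 1794 of the 5862 peaks of the second library (30.6%) and 1794 of the 3164 peaks that were in all 3 lists at 20 ug (56.7%, exact Clopper-Pearson 95% interval 55.0 to 58.4%). The other 1370 of those 3164 had a 2 ug peak and serve below as the comparison. Presence in these 4 lists chose the positions, so their presence at 20 ug and absence at 2 ug is a description and carries no test. The working name for the set, sites needing 20 ug of guide, goes further than the lists: 5 of the 1794 had a peak at a lower amount than 2 ug. The set is therefore named here for its rule only.

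dCas9 is a form of the bacterial nuclease Cas9 that is held on DNA by its guide RNA but does not cut. It first recognises a short protospacer adjacent motif in the DNA, and the guide then pairs with the bases next to that motif, called the seed, before pairing spreads to the rest of the guide. Partly matched sites can thus be occupied, and chromatin immunoprecipitation followed by sequencing (ChIP-seq) lists where the protein sat, not where Cas9 would cut. Nanog-sg3 is a guide for Nanog, the gene of a homeobox transcription factor that supports self-renewal of embryonic stem (ES) cells.

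All libraries used here came from V6.5 mouse ES cells of strain C57BL/6-129, and all immunoprecipitates (IPs) were made with an anti-HA antibody. The 2 libraries at 20 ug and the libraries at 2, 0.2 and 0.02 ug came from V6.5 + dCas9 cells, which carry a stably integrated dCas9 gene, transfected with the stated amount of sgRNA Nanog-sg3. The transient library came from wild-type V6.5 cells that received 20 ug of the same sgRNA together with 20 ug of dCas9, and its input was made from the same kind of cells without antibody. Further lists came from the same stable cells with 20 ug of Phc1-sg1 or Phc1-sg2, guides for a Polycomb gene, or with 10, 20 or 40 ug of Nanog-sg2, another guide for Nanog. The labels give neither the promoter that drives dCas9 nor whether the stable line is 1 clone, and they do not say whether the 2 libraries at 20 ug came from separate cultures. Each other group held 1 library.

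The lists held 5957 peaks (first library, 20 ug), 5862 (second library, 20 ug), 16119 (transient), 2698 (2 ug), 166 (0.2 ug) and 122 (0.02 ug). They carry positions on mm9 and a peak score of the authors but no read counts, so the depth is unknown and scores of different lists may not share 1 scale. The lowest score in these 6 lists lay between 50.01 and 50.49, so weaker binding is not listed. The names of most of these lists call them filtered, by a rule that no source used here gives, and the list of the first 20 ug library differs in format from the others. A missing peak therefore means that none was listed, not that no dCas9 was there.

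The 20 ug-only positions had lower scores than those with a 2 ug peak in each of the 3 lists. In the second library their scores ran from 50.13 to 717.23 with a median of 136.04, against 246.71 for positions with a 2 ug peak. In the first library the medians were 123.55 and 206.21, and in the transient library 130.94 and 197.62. Over the 2 stable libraries the median of the 20 ug-only positions was 129.79 ± 8.84 (mean ± SD, n = 2 libraries) and that of the others 226.46 ± 28.64. The difference of medians was -96.67 ± 19.8 (n = 2) and -66.69 in the transient library. The sets overlapped: 13.3% of the 20 ug-only positions scored above the other set's median in the second library (239 of 1794), 17.3% in the first and 20.8% in the transient library. Only 33 of the 1794 (1.84%) were above it in all 3. Their median was close to that of all 5862 peaks of the second library, 134.63, and above the 98.06 of the 2279 peaks that were neither at 2 ug nor in all 3 lists. No test was made between the sets, since the rule used these lists and positions are not replicates.

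**Figure D1:**
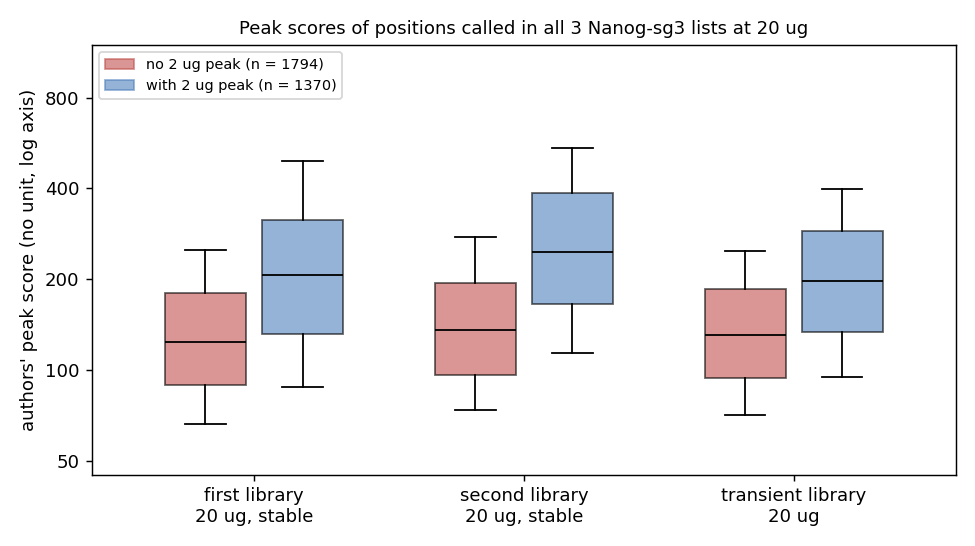
Authors' peak scores (no unit, log axis) in each of the 3 lists at 20 ug, for the 1794 positions without and the 1370 positions with a 2 ug peak; boxes span the quartiles with the median as a line, and whiskers the tenth to ninetieth percentile. The boxes without a 2 ug peak lie lower in each list, with medians of 123.55, 136.04 and 130.94, and the 2 sets overlap.

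The share of positions without a 2 ug peak was lower at each step of score in both stable libraries. In the second library it was 84.3% for scores of 50 to 100 (500 of 593, 81.1 to 87.2%), 60.7% for 150 to 200 (341 of 562) and 29.1% for 300 to 400 (84 of 289). At 600 and over it was 5.56% (6 of 108, 2.07 to 11.7%). The first library gave 74.2% in the lowest group and 3.9% in the highest (3 of 77, 0.811 to 11%). The transient library gave 77% in the lowest group and 15.4% at 400 to 600. Its highest group held 31 positions, of which 5 had no 2 ug peak (16.1%, 5.45 to 33.7%). For the positions that did have a 2 ug peak, the median 2 ug score was 337.53 where the second library gave 600 and over, 137.79 at 200 to 300, 95.26 at 100 to 150 and 92.16 at 50 to 100. Grouped by the first library it was 348.52 at 600 and over, 115.27 at 100 to 150 and 115.34 at 50 to 100. Grouped by the transient library it was 284.66 at 600 and over, but 134.55 at 150 to 200, 142.11 at 100 to 150 and 114.19 at 50 to 100, so the order was not kept at each step. Across the 1370 positions the Spearman correlation between the score at 2 ug and in the second library was 0.57, a description over positions that share the libraries.

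**Figure D2:**
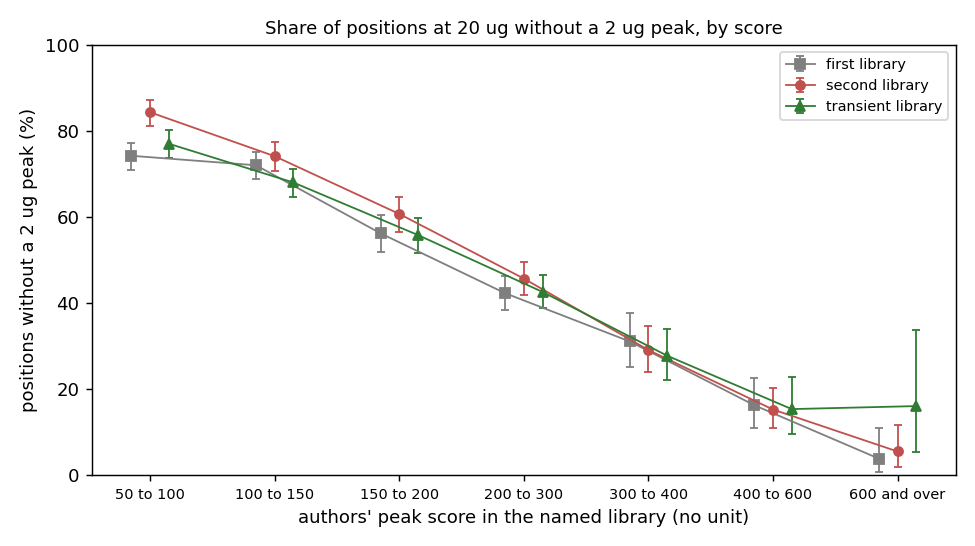
Percentage of the 3164 positions in all 3 lists at 20 ug that had no 2 ug peak, by the authors' score in the first, second or transient library; bars are exact 95% intervals for counting error. The share goes from 84.3% at scores of 50 to 100 to 5.56% at 600 and over in the second library, and the last transient group (31 positions) has the widest interval.

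The scores of the 20 ug-only positions could be compared between the 2 stable libraries. They differed by less than 1.5 times at 61.4% of positions (1102 of 1794) and by 2 times or more at 15.3% (274 of 1794). Among positions with a 2 ug peak these shares were 58.1% (796 of 1370) and 18.4% (252 of 1370). The Spearman correlation between the libraries was 0.49 over the 1794 positions, against 0.64 over the 1370 with a 2 ug peak. With the transient library it was 0.15 for the second and 0.12 for the first library, against 0.33 and 0.28. The 20 ug-only positions span a narrower range of scores, which by itself lowers such a correlation, so these values are given as a description. A high score of a 20 ug-only position in 1 library was often not matched in the others. Of the 45 with a score of at least 400 in the second library, 10 reached 400 in the first, 3 in the transient library and 1 in both. Of the 318 positions with a 2 ug peak and such a score, 163, 80 and 52 did. Scores still differed within this group, since 39 of the 45 but 216 of the 318 lay at 400 to 600 in the second library. The part of score in these counts was not tested. A score of 400 is also an unlike cut in the 3 lists. A score of 406.97 was rank 387 in the second library. In the first library 399.53 was rank 258, and in the transient list 399.62 was rank 193. Choosing positions by 1 library also makes lower scores in the others partly built in. Of the 31 20 ug-only positions with at least 400 in the first library, 10 reached it in the second.

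**Figure D3:**
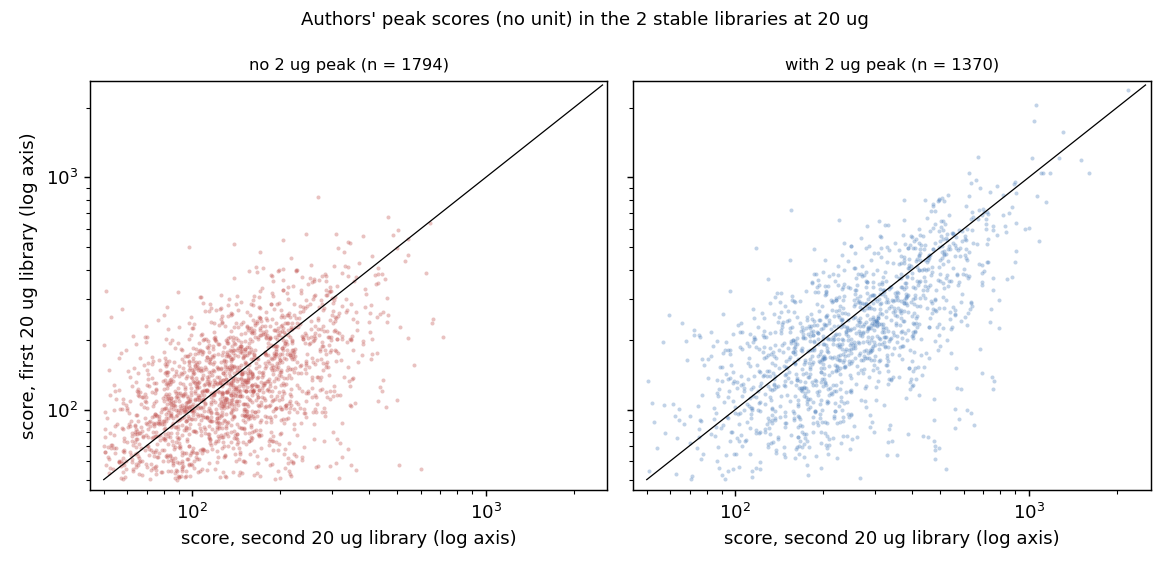
Authors' peak scores of each position in the second (x) and first (y) stable library at 20 ug, both on log axes, for positions without (left, n = 1794) and with (right, n = 1370) a 2 ug peak; the line marks equal scores. Spearman correlations are 0.49 on the left and 0.64 on the right, and the left cloud reaches 717.23 on x and 824.09 on y.

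The 20 ug-only position with the best mean rank over the 3 lists lay on chromosome 1 between 47225699 and 47226137. It scored 645.03 in the second library (rank 78), 636.26 in the first (rank 65) and 417.23 in the transient library (rank 173). It was the only one of the 1794 to score at least 400 in all 3, and the nearest 2 ug peak was 314.67 kb away. The next, on chromosome 10 between 21410123 and 21411233, scored 429.70, 382.29 and 422.13 in the same order. A position on chromosome 8 between 75206408 and 75207633 scored 406.97, 283.03 and 627.71, the last being rank 31 of the transient list. One on chromosome 11 between 29785001 and 29785686 scored 410.63, 459.33 and 306.57. At these 4 the values of the stable libraries differed by at most 1.44 times, and all had been listed far above the lowest score in each list.

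The other 4 by mean rank scored lower in the second library than in the transient one. On chromosome 15 between 38006858 and 38008336 the scores were 296.54 (second), 325.91 (first) and 471.53 (transient). On chromosome 4 between 18849293 and 18850025 they were 291.96, 321.14 and 399.62, and the nearest 2 ug peak was 3656.17 kb away. On chromosome 6 between 37249220 and 37250517 they were 337.66, 269.34 and 364.09. These 3 differed little between the stable libraries. The fourth, on chromosome 3 between 20407923 and 20408573, had 268.51 in the second library and 824.09 in the first, the highest score of any 20 ug-only position there (rank 27).

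Of all 5862 peaks of the second library 30.6% were 20 ug-only, and of its 1000 highest 19.6% (196). Of its 100 highest, only 5 were 20 ug-only (5%). The highest of these 5, on chromosome 1 between 120521513 and 120523868, scored 717.23 in the second library (rank 53), 205.47 in the first and 63.80 in the transient one. Those on chromosome 19 between 42852222 and 42852720 (661.01, 246.87 and 166.77) and on chromosome 17 between 49321791 and 49322537 (657.85, 236.14 and 94.09) showed the same order. The one on chromosome 9 between 64975708 and 64976978 scored 627.35, 387.51 and 98.44. Thus 4 of these 5 were at least 1.62 times lower in the first library and lower still in the transient one. The fifth is the chromosome 1 position of best mean rank. All 5 were chosen for a high score in the second library, so lower scores in the other lists are partly built in.

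At the extremes, the 2 stable libraries gave very different scores for the same position. On chromosome 18 between 74223213 and 74224642 the second library scored 602.34 and the first 55.38, a ratio of 10.88. On chromosome 16 between 21701608 and 21702852 the scores were 507.55 and 57.73. In the other direction, chromosome 15 between 100577247 and 100578602 had 51.01 in the second library and 323.51 in the first, a ratio of 6.34, and chromosome 4 between 46143107 and 46143719 had 97.78 and 501.40. The lowest scores of the second library among the 20 ug-only positions were 50.13, on chromosome 15 between 58629333 and 58630013 (69.83 in the first and 206.99 in the transient library), and 50.17, on chromosome 4 between 149897123 and 149898162 (190.24 and 84.79).

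The rule did not use the lists at 0.2 and 0.02 ug. At 0.2 ug, 4 of the 1794 positions had a peak (0.223%, 0.0608 to 0.57%), against 84 of the 1370 with a 2 ug peak (6.13%, 4.92 to 7.54%) and 1.74% of all peaks of the second library. At 0.02 ug it was 1 of 1794 (0.0557%, 0.00141 to 0.31%) against 9 of 1370 (0.657%, 0.301 to 1.24%), beside 0.324% of all peaks. At 0.02 ug the share rests on 1 position, its interval overlaps that of all peaks (0.195 to 0.506%), and it was 0.172% where the first library was not required. No test was made, as each amount held 1 library and positions are not replicates. Among positions scoring at least 200 in the second library, 1 of 421 20 ug-only positions had a 0.2 ug peak (0.238%, 0.00601 to 1.32%) and 75 of 870 with a 2 ug peak did (8.62%, 6.84 to 10.7%). Below 200 it was 3 of 1373 and 9 of 500. Scores still differed within these groups, since 292 of the 421 but 347 of the 870 lay at 200 to 300, and the part of score in the difference was not tested. Seen from the 0.2 ug list, 4 of its 166 peaks fell on a 20 ug-only position (2.41%), and 84 (50.6%) on a position with a 2 ug peak.

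The 5 positions with a peak below 2 ug were listed at the low amount and at 20 ug but not between. The strongest at 20 ug, on chromosome 8 between 109415785 and 109418115, scored 305.03 in the second library, 218.50 in the first and 89.72 in the transient one, and 67.89 at 0.2 ug (rank 115 of 166). The one at 0.02 ug, on chromosome 16 between 18626256 and 18627358, scored 141.84 there, rank 16 of 122, and 184.04, 105.22 and 153.79 at 20 ug. A 2 ug peak lay 2.72 kb from it. The remaining 3 scored below 100 in both stable libraries. On chromosome 10 between 42400063 and 42400991 the score was 95.63 at 0.2 ug, and 82.51, 98.17 and 121.26 at 20 ug. On chromosome 17 between 78989818 and 78990385 it was 59.45, then 92.52, 66.04 and 134.07. On chromosome 4 between 129844495 and 129845234 it was 52.66, then 80.06, 89.13 and 123.02.

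The rule removed every position that shared a base with a 2 ug peak, so the distance to such a peak is its own measure. The distance to the nearest 2 ug peak had a median of 181156 bp over 1793 positions; the list at 2 ug had no peak on the Y chromosome, which held the remaining 1. Within 1 kb there was a 2 ug peak for 9 positions (0.502%), within 10 kb for 106 (5.91%) and within 100 kb for 654 (36.5%). Among the 1370 positions with a 2 ug peak, 4.74% had another such position within 10 kb and 30.1% within 100 kb. Those distances were taken between centres and to 1370 positions rather than 2698 peaks, so the measures are unlike. The nearest miss lay on chromosome 5 between 128950604 and 128951556, with 209 bp to a 2 ug peak and scores of 122.52, 173.12 and 94.61 in the second, first and transient library. The next was on chromosome 13 between 65663655 and 65664038, at 243 bp (159.47, 142.98 and 204.13). Just outside the rule, a position on chromosome 6 between 37916372 and 37917382 shared 136 bp with a 2 ug peak (177.32, 111.56 and 112.93), and one on chromosome 11 between 67740969 and 67741682 shared 143 bp (67.04, 86.88 and 84.81). The scores of these 4 overlapped across the edge of the rule.

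**Figure D4:**
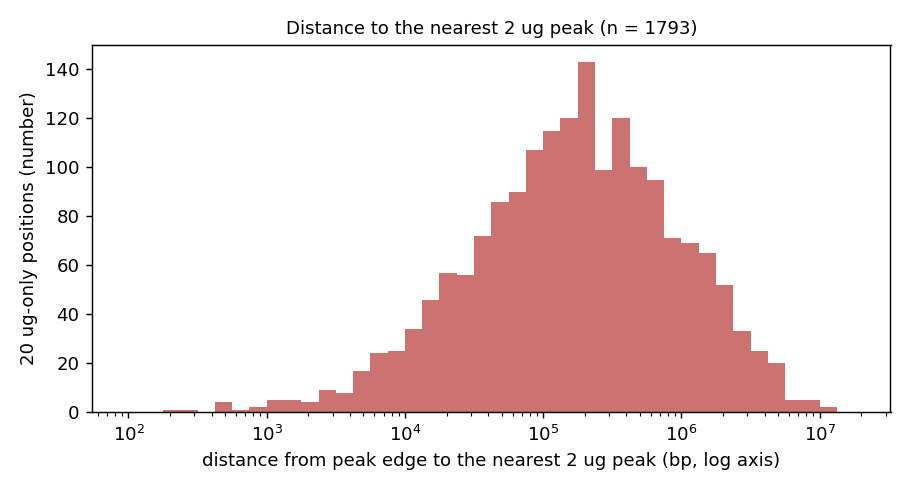
Number of 20 ug-only positions by the distance in bp (log axis) from the edge of the peak to the nearest 2 ug peak, over 1793 positions. The median is 181156 bp, and 9 positions lie within 1 kb.

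The number of positions depends on how a shared peak is defined and on which libraries are required. When an overlap counted only from 50% of each peak upward it was 883, with a minimum score of 100 in each list 947, and without the first or the second library 2915 or 2938.

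The 20 ug-only positions were narrower than those with a 2 ug peak in all 3 lists. Their median width was 866 bp in the second library against 1109.5 bp, 874 against 1094 bp in the first and 383 against 494 bp in the transient library. This width is not particular to the set. In the second library the 2279 peaks neither at 2 ug nor in all 3 lists had a median of 860 bp, and all 5862 peaks 946 bp. A wider peak can more easily share a base with a 2 ug peak, so the rule bears on the difference from positions with a 2 ug peak. That difference was not tested. The widest 20 ug-only peak, 4089 bp, lay on chromosome 6 between 125371954 and 125376042 and scored 189.07, 152.44 and 165.96. The rule asked for a shared base with a peak of both other lists, so near peak centres are partly built in. Centres lay a median of 83.5 bp from the centre in the first library and 75 bp from that in the transient library, and within 200 bp at 85.7% and 87.1% of positions. For positions with a 2 ug peak the medians were 88 and 88.25 bp, and the shares within 200 bp 78.6% and 76.3%. More than 1 transient peak fell on 56 of the 1794 (3.12%), and more than 1 peak of the first library on 8. Conversely, 8 positions shared a peak of the first library with a neighbour and 2 shared a transient peak, so nearly all are separate sites in each list.

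The 20 ug-only positions were spread over all 19 autosomes, with 30 on X and 1 on Y. Their share of the positions in all 3 lists ran from 52.4% on chromosomes 11 and 15 to 62.9% on chromosome 2, and was 65.2% on X (30 of 46, 49.8 to 78.6%). The 95% intervals of all 21 chromosomes held the overall 56.7%; that of the Y chromosome, with 1 position, says little. The density differed more than the share. Per Mb of the span covered by the mouse lists, and leaving aside Y (1 position on a covered span of 0.6 Mb, 1.69), it was highest on chromosome 11 (1.06, 129 positions), followed by 19 (0.962) and 17 (0.913), and lowest on X (0.181, 30 positions) and 3 (0.458). For positions with a 2 ug peak the density was 0.961 on chromosome 11 and 0.0965 on X, again the highest and the lowest of the chromosomes other than Y.

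**Figure D5:**
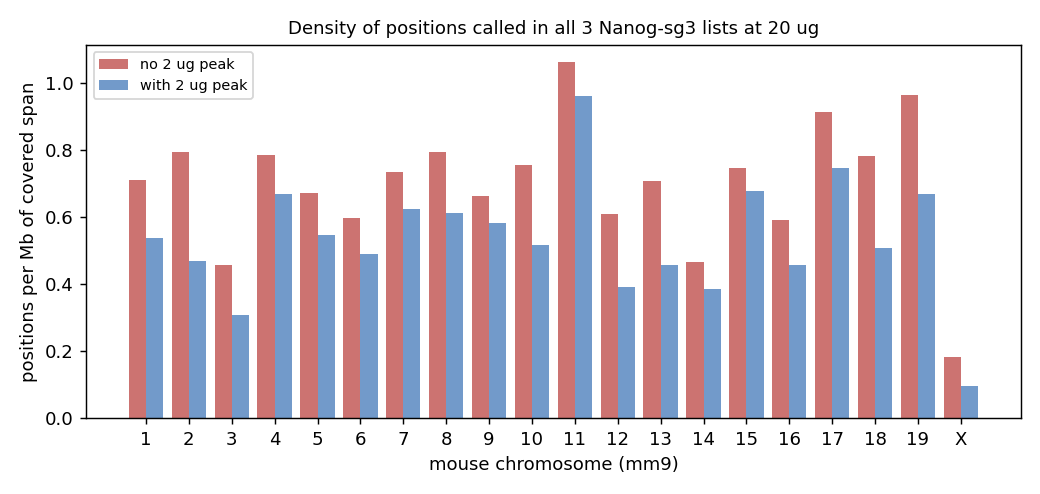
Positions in all 3 lists at 20 ug per Mb of covered span, by chromosome (Y, with 1 position, not drawn), without and with a 2 ug peak. Covered span is the length from the chromosome start to the last peak end in any of the 12 mouse lists. Chromosome 11 is highest in both sets (1.06 and 0.961) and X lowest (0.181 and 0.0965).

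The 20 ug-only positions seldom had another within 10 kb. From the centre of a 20 ug-only position to that of the nearest other one, the median distance was 296.2 kb. Among positions with a 2 ug peak it was 262.1 kb. Another of the same set lay within 100 kb for 429 of 1793 (23.9%) and 413 of 1370 (30.1%). Within 10 kb it was 73 of 1793 (4.07%), against 65 of 1370 (4.74%) among those with a 2 ug peak. These 73 formed 34 groups, of at most 3 positions each. A position with a 2 ug peak lay within 10 kb of 49 (2.73%).

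Peaks of other guides were sought at the 20 ug-only positions. Phc1-sg1 had a peak at 3 of the 1794 (0.167%, 0.0345 to 0.488%), beside 0.239% of all peaks of the second library and 1 of the 1370 positions with a 2 ug peak (0.073%, 0.00185 to 0.406%). The intervals of these shares overlap. The 3 positions lay on chromosome 17 between 47330927 and 47332351 (Phc1-sg1 score 55.29), chromosome 1 between 94995627 and 94996674 (65.16) and chromosome 8 between 73372982 and 73373994 (87.99). In the second Nanog-sg3 library they scored 272.58, 191.81 and 67.57, and in the first 122.03, 100.90 and 60.19. Phc1-sg2 had a peak at 0 of the 1794, beside 0.0341% of all peaks (2 of 5862), and Nanog-sg2 at 10, 20 and 40 ug and the transient input had none at any of the 1794 or the 1370. The input list held 3 peaks and the Nanog-sg2 lists 20 to 26, so these counts of 0 say little. The IP from stable cells without sgRNA was not analysed here.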

How the data were processed

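Bowtie (no version given) and the build mm9 are named per the submitters' processing notes. The deposited lists give each peak a position, a name that begins with MACS, a peak caller, and a score, which is the authors' and has no stated scale. No source used here gives the caller's version, its control library, its threshold or the filter. Some names recur within a list, on up to 4 chromosomes in the second 20 ug list, so their numbers are not 1 series.

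From these lists, 1 per sample, shared peaks (at least 1 bp) were found with Python 3.11.15 (pandas 2.3.3, numpy 2.4.6, scipy 1.17.1), tested on simulated data and checked against bedtools 2.31.1. Where several peaks of a list met a position, the highest score was taken. Starts were read as 0-based and printed 1-based. The 2 libraries at 20 ug were numbered in accession order. Intervals (exact Clopper-Pearson, 95%) cover counting error only; depth is unknown. Correlations are descriptions. The positions and comparisons were chosen with earlier results of these data known. Named positions are those among the 100 highest of the second library, the 8 with the best mean rank over the 3 lists, those with a peak below 2 ug or of another guide, the 2 nearest to each side of the rule, the 2 lowest, the widest, and the 2 with the largest ratio between libraries each way. The groups by score and the counts at 200 and 400 were added after the values were seen. The alternatives changed the overlap, the score minimum, the distance to a 2 ug peak, merging and the lists required. No genome or annotation of mm9 was used here, so sequences, the guide's seed and nearby genes were not analysed here.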

Additional observations from a re-analysis of the deposited data

How the results depend on the processing

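Of 76 values recomputed under other settings, 50 stayed within the tolerance of the value reported. That tolerance was 1.5 times for the number of positions, the 95% interval for percentages, widths and transient scores, the SD of the 2 libraries for their scores, and 0.1 for rho. Merging peaks within 500 bp, asking for no 2 ug peak within 1 kb and counting on the first library moved none. Other alternatives were chosen after seeing the data: without a 2 ug peak within 10 kb the number was 1688, and without any peak at 2, 0.2 or 0.02 ug it was 1789. With 50% of both peaks shared, the number fell to 883, the share of positions lacking a 2 ug peak was 71.9%, the share with a 0.02 ug peak 0%, the median width 788 bp, the median scores 160.09 (second), 136.02 (first) and 151.29 (transient), and rho 0.61. With centres within 200 bp the share lacking a 2 ug peak was 63.3% and the width 828 bp. With a score of at least 100 in each list the number was 947, the share 54%, the width 927 bp and the median scores 176.52, 172.22 and 170.07; the scores are higher there by construction. Where the transient library was not required the number was 2224 and the share 61%. Leaving out 1 of the 2 stable libraries at 20 ug gave 2915 to 2938 positions, since 1 requirement fewer was made. Shares lacking a 2 ug peak were then 63.2 to 67.3%. Those with a 0.2 ug peak were 0.17 to 0.274% and those with a 0.02 ug peak 0.034 to 0.172%. The width was 892 bp, and the median scores were 122.52 (second), 105.99 (first) and 116.78 to 117.79 (transient). Elsewhere the cause was not tested. The planned search for a seed next to its motif was not run. No paired analysis was possible because only the 20 ug group held 2 libraries and no test was made. The unknown depth limits every statement on absence at 2 ug.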

Other observations

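Some 20 ug-only positions scored much higher in both stable libraries than in the transient one, or the reverse. All positions named here were chosen after their values were seen. The transient list is 1 library, and scores of different lists may not share 1 scale. The part of the cells in these differences was not tested. On chromosome 6 between 136879087 and 136879855 the second library scored 542.61 and the first 542.77, but the transient library 56.65. On chromosome 6 between 100147623 and 100148511 the scores were 501.81, 592.65 and 93.98, and on chromosome 8 between 109663483 and 109665440 they were 431.29, 405.85 and 61.84. In all, 10 of the 1794 reached a score of 400 in both stable libraries, and 1 of these did so in the transient library. On chromosome 15 between 97597018 and 97599397, by contrast, the stable libraries gave 81.25 (second) and 89.85 (first) and the transient library 645.62, its rank 24. On chromosome 5 between 21415029 and 21415875 the scores were 86.11, 104.43 and 565.12. Of the 25 positions with a transient score of at least 400, 3 reached it in the second library and 2 in the first. Among the 136 positions with a 2 ug peak and such a transient score, 80 and 59 did.

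The third-highest peak of the transient list fell on a group of 20 ug-only positions on chromosome 2 between 89224942 and 89228635. Its score of 1025.68 belongs to 2 neighbouring peaks of the second library, which scored 201.50 (89227249 to 89228635) and 52.86 (89226400 to 89227221), and both also met 1 peak of the first library, with 250.23. The last of the group, between 89224942 and 89225449, scored 62.27 in the second library, 73.09 in the first and 347.09 in the transient one. The nearest 2 ug peak was 1868.56 kb away. Among the 1794 positions no other pair shared a transient peak.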
